A study of Caenorhabditis elegans with 23 samples.

Results

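Sperm genes of the nematode Caenorhabditis elegans are described here across genotypes. They were chosen by name alone, in the WBcel235 annotation: every protein-coding gene called msp-, ssp-, nspd- or spe-, plus gsp-3 and gsp-4. This gave 84 of 19973 protein-coding genes, made up of 31 msp, 12 ssp, 10 nspd, 29 spe and 2 gsp genes. Of the 84, 67 averaged at least 1 RPKM (reads per kilobase and per depth of the library, here in 1 kb windows) and were tested among 11264 genes.

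The data are RNA levels of whole young adult hermaphrodites, from total RNA freed of ribosomal RNA, in 19 libraries of a series of 23. HRDE-1 is a germline Argonaute protein of heritable nuclear silencing, and the other factors mutated in this series are SET-32, which carries a SET domain, and the histone H3 lysine 9 methyltransferases SET-25 and MET-2. In the 5 hrde-1(tm1200) libraries the mutation stood alone, with set-32(ok1457), with set-32(red11), with the met-2(n4256) and set-25(n5021) pair of alleles, or with red11 and that pair together. In the 9 repaired libraries, marked +R, the hrde-1 mutation had been repaired and worms were taken at a stated generation afterwards. These were the line with no other mutation at F4 and F5, the ok1457 line at F5 and F8, the red11 line at F4 and F5, the met-2 set-25 line at F3 and F5, and the red11 met-2 set-25 line at F5. In the 5 libraries where hrde-1 was never mutated, the worms were N2 wild type, set-32(ok1457), set-32(red11), met-2 set-25, or ok1457 with met-2 set-25. The 4 libraries of generation F20 are not analysed here. Each genotype and generation has 1 library, so strains with the same hrde-1 state serve as each other's replicates. Separate cultures are not stated in the labels. A repaired line here means the libraries of 1 repaired genotype. Its later generations may be the offspring of its earlier ones, which the labels do not state. The p-values thus reflect only how far these libraries differ, which may be technical in part. All 19 libraries carry the same stage label, so no comparison of stages can be made.

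In hermaphrodites the germ cells first make sperm, late in larval life, and then switch to oocytes for the rest of adulthood. Transcription of sperm genes therefore ends early in adult life, while the finished sperm are kept in the spermatheca. The major sperm protein, made from the many msp genes, forms the fibres that move the crawling sperm, and it also signals to oocytes to mature. The spe genes were named for mutants with defective sperm, and gsp-3 and gsp-4 encode sperm protein phosphatases of the PP1 type. The ssp genes are named as a sperm-specific family and the nspd genes as a family of nematode-specific peptides.

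The denominators recovered from the RPKM steps ran from 458687 to 1152825 reads, so 1 read was worth 0.867 to 2.18 RPKM. At the mutated genes, mean levels were 85.6 to 139.0 RPKM in the 5 tm1200 libraries against 125.4 to 271.1 RPKM in the other 14 at hrde-1, and 6.54 to 9.87 RPKM in the 7 met-2 set-25 libraries against 25.8 to 47.4 RPKM in the other 12 at met-2. The ranges at set-25 were 5.30 to 11.6 RPKM in the 7 mutant libraries and 10.1 to 18.4 RPKM in the other 12, and at set-32 they were 3.28 to 11.2 RPKM in the 11 mutant libraries and 9.11 to 18.2 RPKM in the 8 set-32(+) libraries. The ranges overlap at hrde-1, set-25 and set-32. Because the RNA came from whole worms, fewer sperm or spermatocytes and less RNA per cell cannot be told apart.

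The 84 genes are not spread evenly over the genome. Chromosome IV held 37 of them (44.0%, against 16.4% of all protein-coding genes), I held 21, II held 16, V held 7, III held 3, and X held 0, although X has 2731 protein-coding genes (13.7%). The 31 msp genes all lie on II and IV, in 3 stretches. There are 13 on II between 4785898 and 5810330, 9 on IV between 5055631 and 5316906, and 9 on IV between 9689015 and 10143740. Most members are short, with 51 of 84 under 500 bp and the msp genes at 234 to 384 bp. A window of 1 kb is therefore mostly flanking sequence, and 16 of the 67 tested genes have another gene covering at least 250 bp of a window. Msp genes are also near copies of each other. In 49 of the 67, including 31 of 31 msp genes, at least 1 window held fractions of reads, as when reads that match several copies are divided between them. The level of a single msp gene is uncertain for that reason. The summed level of the family does not depend on how reads are divided among its own windows. Reads shared with sequences outside those windows were not checked.

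The main result is how far the msp, ssp and nspd genes moved together from library to library. Summed over the 31 msp windows, the level was 27.5-fold higher in the highest library than in the lowest. In the 5 tm1200 libraries the sum was 420.9 RPKM for tm1200 alone, 341.6 with met-2 set-25, 301.8 with red11 and met-2 set-25, 289.6 with red11 and 220.6 with ok1457. These 5 were the closest together of the 3 hrde-1 states. Among the 9 repaired libraries the sum was 1359 RPKM in the ok1457 line at F8, 828.4 in the line with no other mutation at F4 and 341.4 in the red11 line at F4. It was 165.7 in the line with no other mutation at F5, 163.4 and 145.2 in the met-2 set-25 line at F5 and F3, 111.6 in the red11 met-2 set-25 line at F5, 93.4 in the red11 line at F5 and 49.4 in the ok1457 line at F5. The repaired libraries thus held both the highest and the lowest of the 19. In the never mutated libraries the sum was 735 RPKM in met-2 set-25, 348.2 in ok1457 with met-2 set-25, 228.6 in ok1457, 181.5 in N2 and 54.9 in red11. The highest sum equals about 1550 reads and the lowest about 51.

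**Figure D1:**
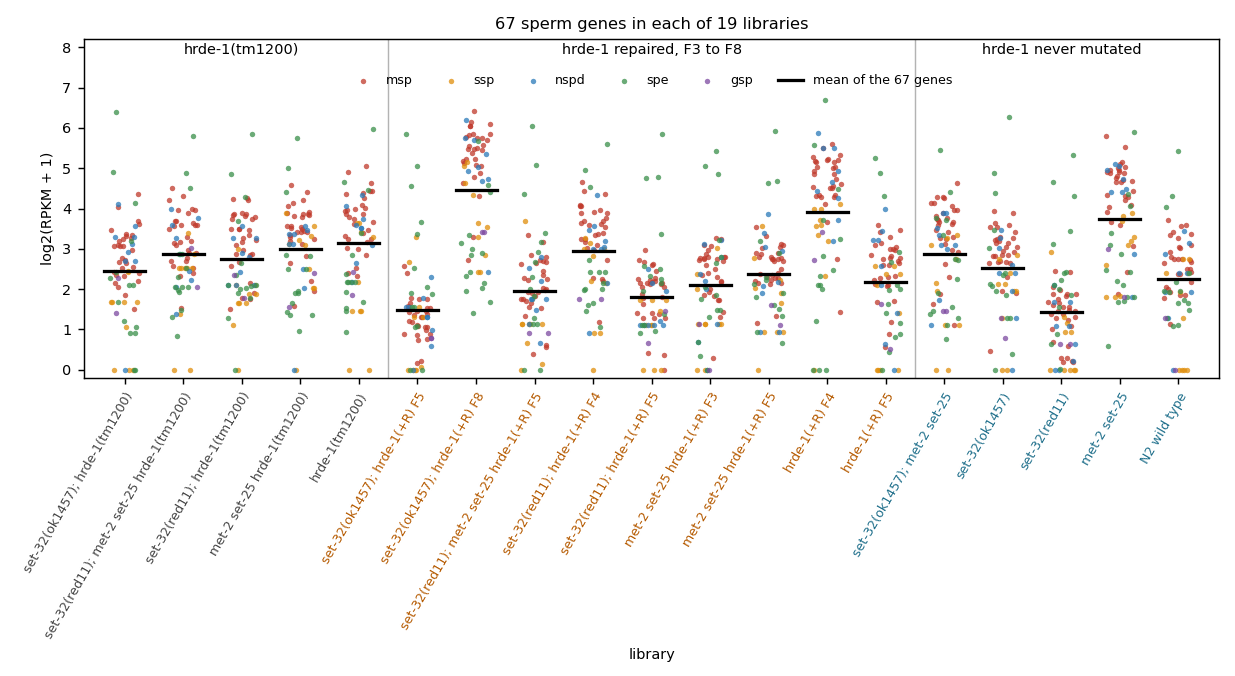
Level of each of the 67 tested sperm genes, as log2(RPKM + 1), in each of the 19 libraries, with points coloured by family and a black bar at the mean of the 67. The bars run between 1.43 in set-32(red11) and 4.45 in the repaired ok1457 line at F8, and most spe genes stay in place while the msp and nspd points shift as a block.

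Nearly every msp gene followed the family. All 31 msp genes lie in windows with fractions of reads, so they may share reads. The counts below are therefore not counts of independent genes. In the repaired ok1457 line at F8 and in met-2 set-25, 31 of 31 msp genes were above their own median over the 19 libraries, and in hrde-1(tm1200) and the repaired line with no other mutation at F4 it was 30 of 31. In the repaired ok1457, red11 and red11 met-2 set-25 lines at F5 it was 0 of 31, and in set-32(red11) it was 1 of 31. N2 had 5 of 31. The 67 tested genes gave a mean log2(RPKM + 1) of 2.84 ± 0.26 in the tm1200 libraries (SD, n = 5), 2.58 ± 1.00 in the repaired libraries (SD, n = 9) and 2.56 ± 0.84 in the never mutated libraries (SD, n = 5). The ranges overlapped, at 2.46 to 3.14 in tm1200, 1.48 to 4.45 in repaired and 1.43 to 3.73 in never mutated libraries.

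**Figure D2:**
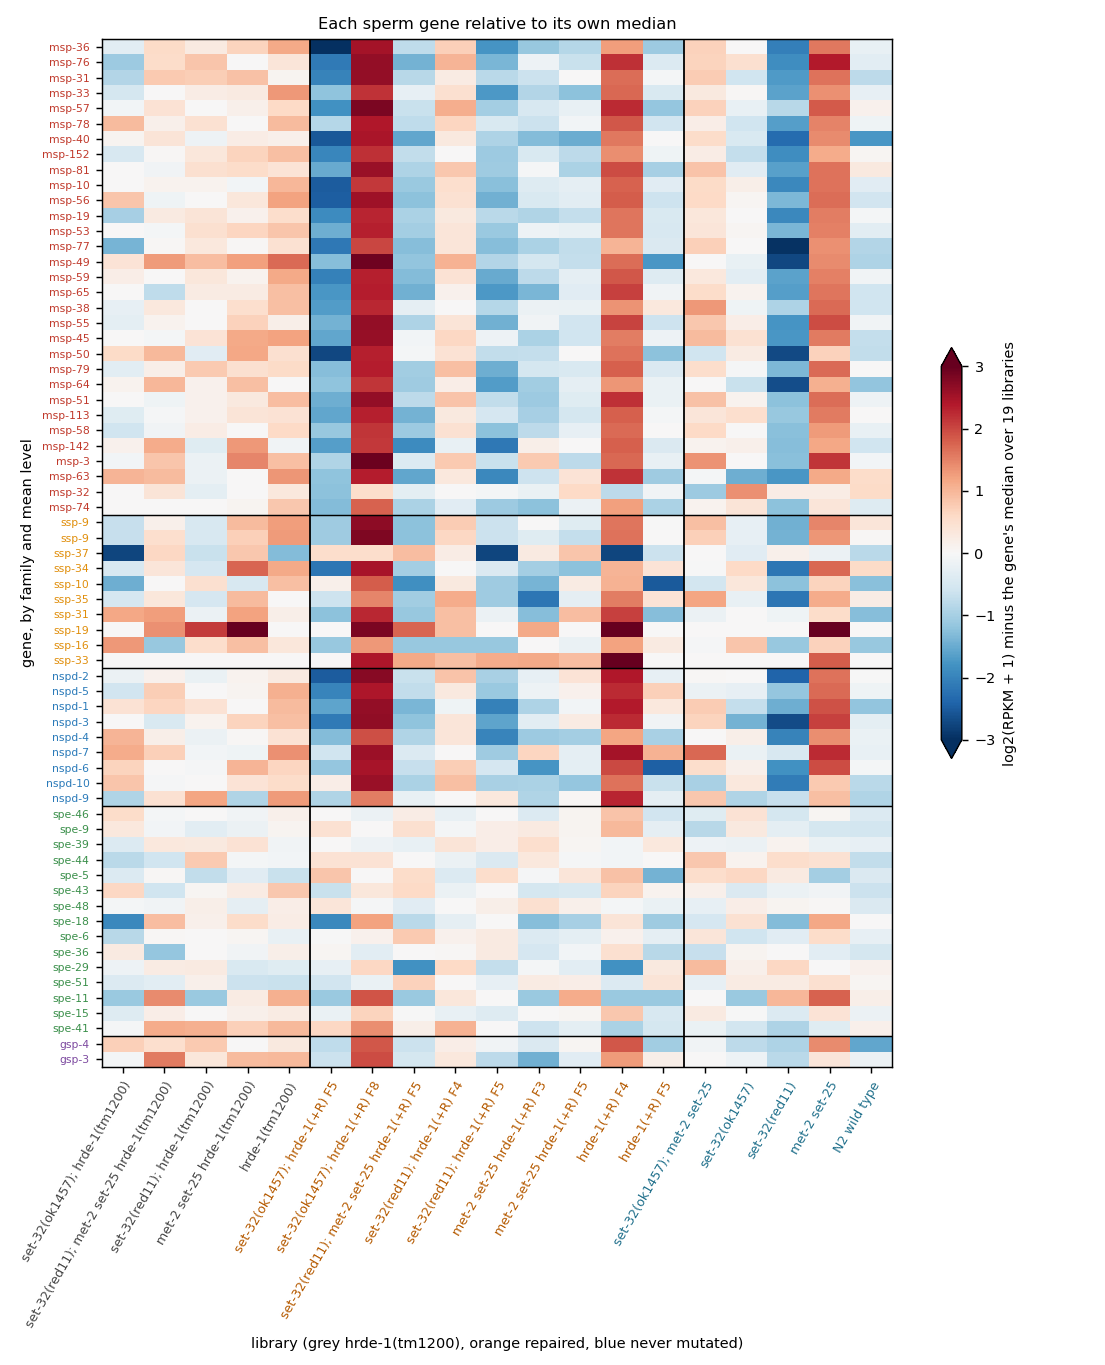
Each row is 1 of the 67 sperm genes and each column 1 library; colour is log2(RPKM + 1) minus the median of that gene over the 19 libraries, and rows run by family and mean level. The repaired ok1457 line at F8, the repaired line with no other mutation at F4 and met-2 set-25 are red through the msp and nspd rows, the repaired ok1457 line at F5 and set-32(red11) are blue there, and most spe rows are pale in all columns.

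Over the 19 libraries the SD of log2(RPKM + 1) had a median of 1.11 over the 67 genes and of 0.39 over every gene tested. It was above 1 in 45 of the 67 genes (67.2%) and in 568 of 11264 genes (5.04%). The filter on the mean can favour genes that are high in a few libraries, but 63 of the 67 also had a median of at least 1 RPKM, and the msp family lost no gene to it. Compared at like levels, between 5 and 20 RPKM, 37 of 42 sperm genes and 157 of 3493 other genes had an SD above 1. The spread that read counting alone would give had a median of 0.49 over the 67 genes. Without any window of divided reads, 25 of the genes remained and their median SD was 0.95. These were 13 spe, 6 ssp, 4 nspd and 2 gsp genes and 0 msp genes, so the spread of the msp genes has no check free of divided reads.

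**Figure D3:**
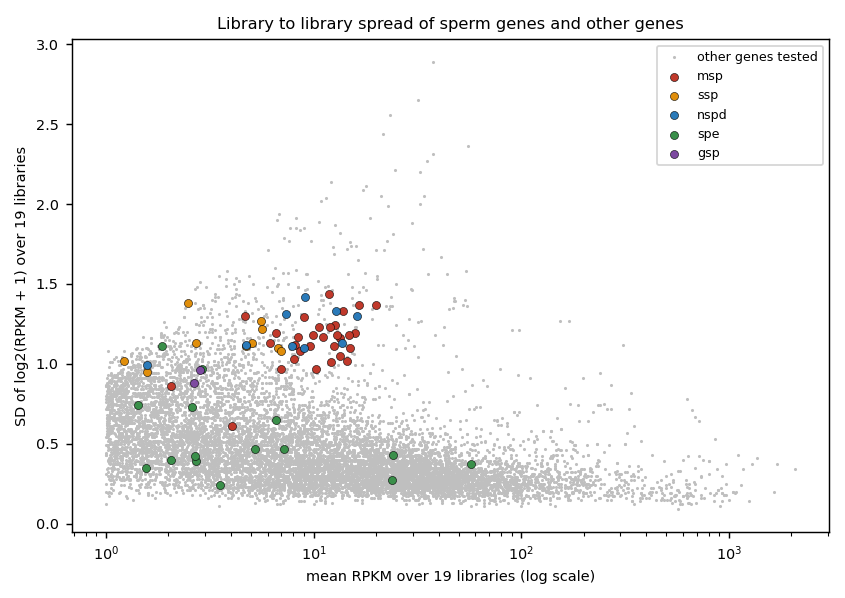
SD of log2(RPKM + 1) over the 19 libraries against mean RPKM on a log scale, for the 67 sperm genes by family and, in grey, for the other genes tested. Most msp, ssp and nspd genes lie between 1 and 1.5, above most grey points of the same level, and most spe genes lie among the grey points.

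Terms for genotype took up little of this spread. A fit was made with terms for hrde-1 state, set-32 and met-2 set-25. Its residual SD had a median of 1.19 over the 67 genes, and it was at least as large as the total SD in 58 of them. The same held for 31 of 31 msp and 9 of 9 nspd genes. It also held for 6080 of 11264 genes tested, where the median residual SD was 0.39 and the median total SD 0.39. Genotype terms thus took up little of the spread of most genes, sperm genes or not, though the share of such genes was larger among the sperm genes. The residual SD allows for the number of terms, so it can reach the total SD wherever genotype has no effect. These terms take both set-32 alleles together and hold no combination of mutations. Another fit, chosen after seeing the data, had each of the 6 combinations of set-32 and met-2 set-25 alleles as a strain background and a term for hrde-1 state. Its residual SD had a median of 1.25 over the 67 genes and of 0.37 over every gene tested. It was at least as large as the total SD in 56 of the 67 genes, and this was not counted over every gene.

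Among the msp genes, msp-49 (II, 5194366 to 5194749, plus strand) had the largest spread of all 67, with an SD of 1.44. It had 23.7, 16.7, 17.4, 13.4 and 9.02 RPKM in the tm1200 libraries alone, with met-2 set-25, with red11 met-2 set-25, with red11 and with ok1457. In the repaired libraries the lowest, median and highest values were 1.27, 3.64 and 56.5 RPKM. In the never mutated libraries it had 19.4 RPKM in met-2 set-25, 6.58 in ok1457 met-2 set-25, 5.46 in ok1457, 2.97 in N2 and 0.15 in red11. All 5 tm1200 values were above 4 of the 5 never mutated values. Its window holds divided reads only, so part of its signal may be that of other msp genes.

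The msp gene with the highest mean, 20.1 RPKM, was msp-36 (IV, 10095433 to 10095816, plus strand). Its lowest, median and highest values were 0.83, 7.51 and 84.7 RPKM in the repaired libraries, against 2.68, 14.3 and 45.2 RPKM in the never mutated ones. The tm1200 libraries lay between 11.3 and 32.4 RPKM. Its window also covers C04G2.5. A like pattern was found at msp-76 (IV, 9689015 to 9689398), at 1.46 to 65.6 RPKM, and at msp-31, msp-33, msp-57 and msp-78, with means of 14.6 to 15.9 RPKM and highest values of 53.1 to 70.5 RPKM. In all 6 of these genes the highest library was the repaired ok1457 line at F8. The window of msp-31 also covers aagr-2, and that of msp-33 covers gst-9. In 4 msp genes the SD was not above 1, at 0.61 for msp-32, 0.86 for msp-74, 0.97 for msp-58 and 0.97 for msp-38. The lowest mean of the family was that of msp-74, at 2.07 RPKM.

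The nspd genes moved as the msp genes did. Their summed level was 31.3-fold higher in the highest library than in the lowest. The highest mean was that of nspd-2 (IV, 9844060 to 9844272), at 16.1 RPKM, with 72.3 RPKM in the repaired ok1457 line at F8 and 0.97 RPKM in the same line at F5. For nspd-3 (IV, 5162826 to 5163041) the SD was 1.42 and the values of those libraries were 40.0 and 0.49 RPKM. No read was found for nspd-3 in set-32(red11), against 4.25 RPKM in N2. The window of nspd-2 covers no other gene, while that of nspd-3 covers another annotated gene.

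The 10 tested ssp genes were lower, with means of 1.23 to 6.98 RPKM, and 8 of the 10 were at 0 in at least 1 library. Of these, ssp-19 (I, 2562668 to 2562997), with an SD of 1.38, was at 0 in 10 libraries and reached 16.2 RPKM in the repaired line with no other mutation at F4, 8.25 RPKM in tm1200 with met-2 set-25 and 7.53 RPKM in met-2 set-25. At this depth a 0 means only that no read was found. In ssp-33 (V, 14711377 to 14711700), the tested gene with the lowest mean at 1.23 RPKM, the repaired line at F4 gave 11.1 RPKM and 11 libraries gave 0. Just outside the filter stood spe-26, at 0.96 RPKM. The phosphatase genes gsp-3 and gsp-4 had SDs of 0.88 and 0.96 and means of 2.65 and 2.85 RPKM. They shared the same value, 9.64 RPKM, in the repaired ok1457 line at F8, and 0.73 RPKM in that line at F5, while in met-2 set-25 the values were 2.51 RPKM for gsp-3 and 6.91 RPKM for gsp-4. In each of them 1 of 2 windows held fractions of reads.

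The spe genes behaved differently from the other families in this spread. Only 15 of 29 passed the filter, their median SD was 0.43, close to the 0.39 of every gene, and 1 of the 15 had an SD above 1. That gene was spe-11, which encodes a sperm-supplied factor for the embryo, with 7.01 RPKM in the repaired ok1457 line at F8, 6.28 RPKM in met-2 set-25 and 0 in 8 libraries. The summed level of the spe genes was 2.07-fold higher in the highest library than in the lowest. The highest levels belonged to spe-46, with a lowest, median and highest value of 37.3, 56.25 and 102.5 RPKM over the 19 libraries, to spe-9, a sperm surface protein needed for fertilization, at 12.6, 23.1 and 46.6 RPKM, and to spe-39, a vesicle trafficking protein, at 16.7, 22.7 and 32.5 RPKM. Reads in 2 of the 3 windows of spe-9 were divided, so its level may belong in part to other copies. The smallest SDs were 0.24 for spe-48, 0.27 for spe-39, 0.35 for spe-15, an unconventional myosin, 0.37 for spe-46 and 0.39 for spe-6, a casein kinase 1-like protein. A window of each of spe-15, spe-48 and spe-6 also covers another gene. The sperm transcription factor gene spe-44 also stayed close, at 3.27 to 12.1 RPKM with an SD of 0.47.

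Of the 17 members without a test, 16 had too few reads, at means under 1 RPKM, and spe-19 lies on the part of V that could not be placed. The 16 were 13 spe genes, ssp-32, ssp-36 and nspd-8. Among the spe genes were spe-4, a presenilin, spe-8, a tyrosine kinase of sperm activation, and spe-38 and spe-42, sperm membrane proteins of fertilization. For spe-8 the mean was 0.27 RPKM and the highest library was again the repaired ok1457 line at F8, at 2.34 RPKM.

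Sperm genes that the name rule does not take moved in the same libraries. The 17 tested genes of a list of 24, which includes msd genes, the spch chromatin genes and the Argonautes alg-3 and alg-4, had a median SD of 1.12. Their summed level was 349.1 RPKM in the repaired ok1457 line at F8 and 44.1 RPKM in the lowest library. These genes were not used to choose the group. The list was drawn up with earlier results of these data known, so it is not an independent check of the group's label. Of the 7 names on the list without a test, trp-3, msd-3, sss-2 and gska-3 had no value under those names. Another of the 7, fog-3, which directs germ cells to become sperm, had a mean of 0.75 RPKM and was at 0 in 10 libraries.

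The pairs of generations within 1 repaired line give the closest comparison, since the genotype is the same; each is 1 library against 1, with no replicate check and no p-value. In the ok1457 line, 53 of 67 sperm genes were at least 2-fold higher at F8 than at F5 on the log2(RPKM + 1) scale, against 10.1% of every gene tested, and 0 were at least 2-fold lower, against 5.43%. Their median log2 difference was 3.48, and it was 4.10 for the 31 msp genes, of which 31 were at least 2-fold higher. In the red11 line, 43 of 67 were at least 2-fold lower at F5 than at F4, against 6.12% of every gene, and 0 were higher, against 2.85%, with a median of -1.22. In the line with no other mutation, 54 of 67 were at least 2-fold lower at F5 than at F4, against 13.1% of every gene, and 2 were higher, against 5.76%, with a median of -1.95. In the met-2 set-25 line, 9 of 67 were at least 2-fold higher at F5 than at F3, against 8.02% of every gene, and 2 were lower, against 3.75%, with a median of 0.22. Sperm genes were thus higher in the later library of the ok1457 line, at F8 against F5, and lower in 2 others, at F5 against F4. The generations compared are unlike, and F5 was the lower library in each of these lines. Summed msp levels were 49.4 to 165.7 RPKM in the F5 libraries of all lines. They were 341.4 and 828.4 RPKM at F4, 1359 RPKM at F8 and 145.2 RPKM at F3. The part of generation was not tested. With a pseudocount of 5 RPKM the count of lower genes in the red11 line was 18 of 67, against 1% of every gene, and that of higher genes in the met-2 set-25 line was 0 of 67, against 1.56%. Without windows of divided reads 25 sperm genes remained, with 0 msp genes among them. Of these 25, 14 were higher in the ok1457 line, against 9.7% of every gene, and 8 were lower in the red11 line, against 5.96%. In the line with no other mutation 13 were lower, against 11.8%, and in the met-2 set-25 line 3 were higher, against 8.36%.

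**Figure D4:**
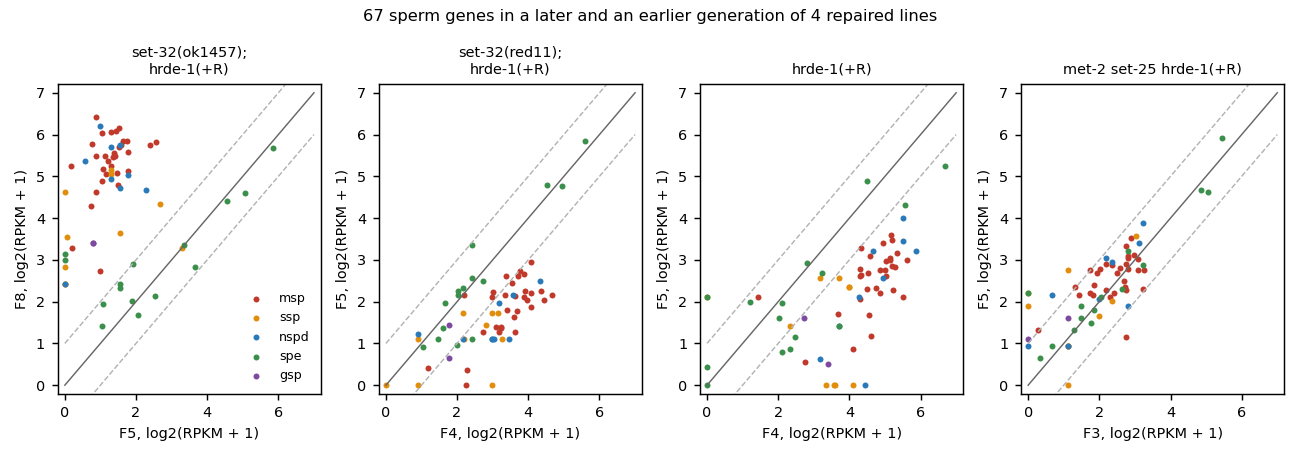
Each panel sets the later generation of 1 repaired line (vertical) against the earlier one (horizontal) in log2(RPKM + 1), with 1 point per sperm gene; the solid line marks equal levels and the dashed lines a 2-fold difference. The msp points lie above the upper dashed line in the ok1457 panel, below the lower one in most of the red11 panel and of the panel with no other mutation, and around the diagonal in the met-2 set-25 panel.

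Genes of other tissues also differed within these pairs. Between F8 and F5 of the ok1457 line, the 125 tested cuticle collagen genes had a median log2 difference of 0.91 and the 17 body muscle genes one of 1.00, while the 25 oocyte and eggshell genes had -0.24 and the 22 general germline genes -0.29. Between F5 and F4 of the line with no other mutation, collagens had -1.76, oocyte genes 0.41 and muscle genes 0.14. Between F5 and F4 of the red11 line, collagens had -0.57 and muscle genes 0.61. In the met-2 set-25 line, collagens had 0.94 although the sperm genes had 0.22. Collagen genes change with the moults, and their median SD over the 19 libraries was 1.08, beside 1.11 for the sperm genes. Summed over its list, the collagen level ran from 11942 to 17172 RPKM in tm1200, 7612 to 24718 RPKM in repaired and 13904 to 21613 RPKM in never mutated libraries. The oocyte list ran from 4496 to 6535 RPKM in tm1200, 3754 to 6292 RPKM in repaired and 3791 to 6340 RPKM in never mutated libraries, and its median SD was 0.29. Yolk genes had a median SD of 0.35. The part of these shifts, or of moulting stage, in the sperm gene levels was not tested.

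No sperm gene passed the threshold, an adjusted p under 0.05 and a log2 fold change of at least 1, in any of the 5 comparisons between genotypes (limma with Benjamini-Hochberg adjustment over the 11264 genes). The comparisons of the 3 hrde-1 states share libraries with each other. Over the 5 comparisons the SE of the log2 fold change had a median of 0.51 to 0.67 for the sperm genes and of 0.19 to 0.25 for every gene tested. A typical sperm gene thus needed a larger change to be called, and a count of 0 does not show equal levels. For hrde-1(tm1200) against never mutated, which asks what loss of HRDE-1 does, 0 of 67 sperm genes were called, against 52 genes or 0.462% of every gene tested. Their median log2 fold change was 0.27, against -0.06 over every gene, and 1 of the 67 was under an unadjusted p of 0.05, against 658 of 11264. The median rests on 1 library: without set-32(red11) it was -0.03, and without the 7 met-2 set-25 libraries it was 0.77.

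**Figure D5:**
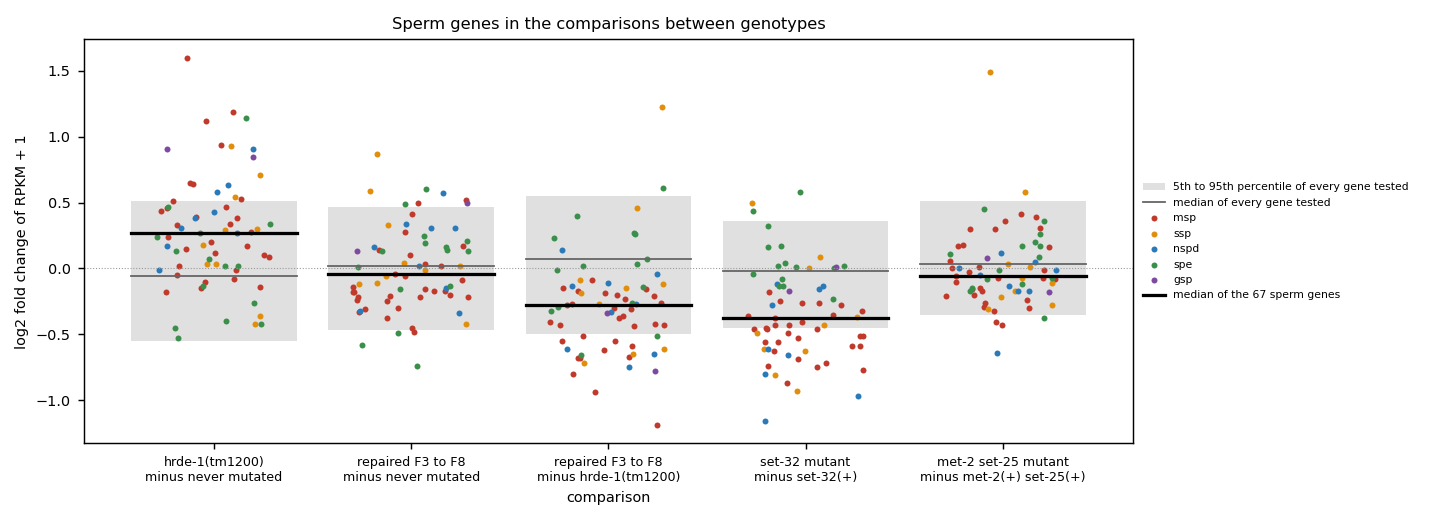
Log2 fold change of RPKM + 1 of each of the 67 sperm genes in 5 comparisons, with a black bar at their median, a grey line at the median of every gene tested and a grey band between the 5th and 95th percentile of every gene tested. The medians of the sperm genes are 0.27, -0.04, -0.28, -0.38 and -0.06 (from left to right), and 0 of the 67 points passed the test in each comparison.

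The largest values for tm1200 against never mutated were those of msp-49, at 1.60 ± 0.81 (SE, limma adjusted p = 0.869), msp-50, at 1.19 (adjusted p = 0.955), and spe-41, at 1.14 ± 0.39 (SE, adjusted p = 0.492). The spe-41 gene (III, 3439011 to 3444210, minus strand) encodes a cation channel that sperm need to fertilize. It had 2.81, 2.17, 3.15, 3.05 and 0.88 RPKM in the tm1200 libraries alone, with met-2 set-25, with red11 met-2 set-25, with red11 and with ok1457. The never mutated libraries had 1.13 RPKM in N2, 0.69 in ok1457 met-2 set-25, 0.51 in met-2 set-25, 0.31 in ok1457 and 0.01 in red11. In tm1200, 4 values lay above all 5 never mutated ones, and the ok1457 tm1200 value did not. The repaired line with no other mutation was at 0 at F4, and the repaired ok1457 line had 4.04 RPKM at F8 and 1.95 RPKM at F5. It was the only sperm gene with a window that the authors marked GRTS, a yes or no mark in their table whose making is not given in the sources used here. No sperm gene had a window marked GRH or misannotated.

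For repaired F3 to F8 against never mutated, which asks whether restoring hrde-1 returns the levels, 0 of 67 were called, against 0.00888% of every gene tested, and the median was -0.04, against 0.02. At an unadjusted p under 0.05 there was 1 of 67, against 652 of 11264. The sign of this median rests on single libraries, from -0.35 without set-32(red11) to 0.21 without met-2 set-25 of the never mutated set, and it was 0.78 without the 7 met-2 set-25 libraries. The largest values were 0.87 for ssp-33 (limma adjusted p = 0.878), -0.74 for spe-29, a sperm activation gene (adjusted p = 0.876), and 0.60 for spe-9 (adjusted p = 0.713). The window of spe-29 also covers gon-1. For spe-9 the level averaged 28.3 ± 8.21 RPKM in repaired libraries (SD, n = 9) and 18.3 ± 6.21 RPKM in never mutated libraries (SD, n = 5), with overlap.

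For repaired against tm1200, 0 of 67 were called, against 0.266% of every gene tested, and the median was -0.28, against 0.07. On the log2(RPKM + 1) scale the 31 msp genes had negative values, between -1.19 and -0.09, none of which passed the test. Mean RPKM gave another picture, since 23 of the 31 had a higher mean in repaired than in tm1200 libraries, and 8 had a lower one. Of the 67 sperm genes, 1 was under an unadjusted p of 0.05, against 955 of 11264. Without the 7 met-2 set-25 libraries the median was 0.01. The value of msp-49 was -1.19 (limma adjusted p = 0.684) and that of msp-36 -0.94 (adjusted p = 0.764). All 5 tm1200 libraries were listed at 0 for ssp-33, so its 1.23 (adjusted p = 0.457) depends on the pseudocount and is no bound.

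For set-32 mutant against set-32(+), 0 of 67 were called, against 0% of every gene tested, since limma called 0 genes (451 of 11264 were under an unadjusted p of 0.05, and 1 of the 67). The median was -0.38, against -0.02 over every gene. Again the msp genes had 1 sign, with 31 of 31 between -0.87 and -0.18, and so did 9 of 9 nspd genes, none past the threshold. Msp genes share reads, so 31 values of 1 sign are not 31 independent observations. The largest values were -1.16 ± 0.61 for nspd-3 (SE, limma adjusted p = 1), -0.97 for nspd-5 (adjusted p = 1) and -0.93 for ssp-34 (adjusted p = 1). Summed msp levels had a lowest, median and highest value of 49.4, 228.6 and 1359 RPKM in the 11 set-32 mutant libraries and ran from 145.2 to 828.4 RPKM in the 8 set-32(+) libraries. The mutant libraries thus held both extremes. By allele, the median was -0.73 with red11 alone as the mutant and -0.11 with ok1457 alone.

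For met-2 set-25 mutant against met-2(+) set-25(+), 0 of 67 were called, against 0.151% of every gene tested, and the median was -0.06, against 0.03. At an unadjusted p under 0.05 there was 1 of 67, against 706 of 11264. That gene was ssp-37 (I, 12561040 to 12561560, minus strand), at 1.49 ± 0.48 (SE, limma adjusted p = 0.448), with 8.72 ± 2.73 RPKM in the mutant libraries (SD, n = 7) and 3.87 ± 3.24 RPKM in the others (SD, n = 12). Its 7 mutant values were 5.02 to 11.9 RPKM, and 4 of the 12 others lay in that range. It was at 0 in the repaired line with no other mutation at F4. For nspd-10 the value was -0.64 and for ssp-19 it was 0.58 (adjusted p = 1 for both).

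The median for met-2 set-25 had opposite signs in repaired and never repaired libraries. It was -0.95 within the 9 repaired libraries and 0.64 within the 10 never repaired ones. The repaired met-2 set-25 libraries were all of F3 or F5, while all F4 and F8 libraries were met-2(+) set-25(+). Generation and met-2 set-25 state thus cannot be told apart in the repaired value. Among the F5 libraries the summed msp level was 111.6 and 163.4 RPKM with met-2 set-25 mutated, and 49.4, 93.4 and 165.7 RPKM without. The difference between these effects had a median of -1.66 over the 67 genes, and limma's interaction term called 0 of them, with a smallest adjusted p of 0.603 and 15 of 67 under an unadjusted p of 0.05, against 777 of 11264 or 6.9%. It called 0 of all 11264 genes. Sperm genes go together and msp genes may share reads, so the 15 are not independent. The interaction of set-32 with repair had a median of 0.34, with 0 sperm genes among the 8 genes under an adjusted p of 0.05 and 2 of 67 under an unadjusted p of 0.05, against 428 of 11264 or 3.8%.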

How the data were processed

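The authors deposited RPKM values for 100257 windows of 1 kb, with yes or no marks per window. Per the submitters' processing notes reads were aligned with Bowtie 0.12.7. For read filters, strand, genome build and reads with several matches, the method is not given in the sources used here. The 24 other value columns of the table were not used.

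Window numbers, counted from 0, were set against WBcel235 exons: of 202 segments of 500 windows, 193 matched best at a shift of at most 100 bp and 200 at most 300 bp. Genes on V from 19500 kb were left out. A gene's value is the mean of windows it overlaps by at least 500 bp, or else its best window. Genes with a mean of at least 1 RPKM were tested on log2(RPKM + 1), a scale that understates changes of low genes, with limma 3.58.1 (lmFit, eBayes with trend) in R 4.3.3, in an additive fit over 19 libraries with 14 residual degrees of freedom. The fit was also run on simulated counts drawn independently for each gene. These held no shared reads and no family that moves together, so that run does not test the fit for sperm genes. Only 81.8% to 85.0% of the positive values per library came out as whole reads within 0.0051 RPKM, so no count test was run. Windows with under 80% whole values are called divided. The share of reads outside the windows was 0.924% to 9.76%.

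Named are the 10 sperm genes with the highest mean, the 5 with the largest and the 5 with the smallest SD, the 3 with the largest fold change in each comparison, gsp-3 and gsp-4. The genes msp-32, msp-38, msp-58, msp-74, spe-8, spe-11, spe-26 and spe-44 were chosen after their values were seen. Members and lists were chosen with earlier results of these data known.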

Additional observations from a re-analysis of the deposited data

Results flagged for a closer look

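In the groups of 4 and 5 libraries, 66 combinations of a group and a value were examined for 1 library far from the others, and 33 were flagged. Chance flags about 1 in 20 groups if values are normally distributed, which was not checked. The values are not independent, since sperm genes share reads and go together.

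Among the 5 repaired set-32 mutant libraries, the flags fell on the ok1457 line at F8, as the highest value each time. All of these flags were on RPKM. On mean log2(RPKM + 1), neither the 67 genes nor any family was flagged in this group, and the msp genes had 5.33 at F8 and 3.43 in the next library. The summed msp level of the ok1457 line at F8 was 1359 RPKM, beside 341.4 RPKM in the next library. Flagged msp genes were msp-31 at 70.5, msp-33 at 53.1, msp-36 at 84.7, msp-49 at 56.5, msp-50 at 36.8, msp-57 at 67.1 and msp-78 at 55.5 RPKM. Also flagged were nspd-2 at 72.3, nspd-3 at 40.0, nspd-5 at 50.8, nspd-10 at 24.5, ssp-33 at 4.38, ssp-34 at 23.7, spe-15 at 2.84, gsp-3 at 9.64 and gsp-4 at 9.64 RPKM.

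Among the 4 repaired set-32(+) libraries, the flags fell on the line with no other mutation at F4, again as the highest. Its mean log2(RPKM + 1) was 3.91 over the 67 genes, 4.63 over the msp genes and 4.67 over the nspd genes, and its summed msp level was 828.4 RPKM, beside 165.7 RPKM in the next library. Flagged genes were msp-31 at 35.8, msp-33 at 39.3, msp-36 at 35.6, msp-49 at 23.3, msp-57 at 44.7, msp-76 at 48.0, msp-78 at 37.7, ssp-19 at 16.2, ssp-33 at 11.1, nspd-2 at 57.2, nspd-3 at 29.6 and nspd-10 at 12.1 RPKM. In that library the summed collagen level was 24718 RPKM, the highest of the 19, and in the ok1457 line at F8 it was 19578 RPKM. By mean log2(RPKM + 1) the collagens of the ok1457 line at F8 stood at 4.03, rank 10 of the 19, and the median over libraries was 4.03. There 80 of 125 collagen genes were above their own median. The cause of the flags was not tested.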

How the results depend on the processing

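In each of the 5 comparisons 0 sperm genes were called under every setting that was run. The counts over all genes, from which the background shares come, changed more. With a pseudocount of 0.1 RPKM they were 26 for tm1200 against never mutated, 3 for repaired against never mutated, 12 for repaired against tm1200 and 11 for met-2 set-25, and with 5 RPKM the last was 7. With the best window alone they were 5 for repaired against never mutated and 11 for met-2 set-25, and without divided windows 29 for tm1200 against never mutated. Without the 7 met-2 set-25 libraries they were 8 for tm1200 against never mutated, 2 for repaired against never mutated and 9 for repaired against tm1200, and the sperm gene median for repaired against never mutated was 0.78. In the 10 never repaired libraries met-2 set-25 gave 3 genes and nspd-10 a value of 0.15. In the 9 repaired libraries it gave 2 genes, a sperm gene median of -0.95 and -0.46 for ssp-19, and set-32 gave 10 genes. With red11 alone set-32 gave 1.

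The range of library means was 3.95 with 0.1 RPKM, 1.95 with 5 RPKM and 1.78 without divided windows, beside 3.02. The median SD with 5 RPKM was 0.69, and its ratio to that of every gene was 1.83 with the best window alone, beside 2.82. The pairs of generations changed with 5 RPKM (18 lower in red11, against 1% of every gene, and 0 higher in met-2 set-25, against 1.56%). Without divided windows and hence without msp genes, of 25 genes 14 were higher in ok1457 (9.7% of every gene), 8 lower in red11 (5.96%), 13 lower with no other mutation (11.8%) and 3 higher in met-2 set-25 (8.36%). Alternatives for the pairs, 3 for the spread and the strain background block were chosen after seeing the data. The cause of these changes was not tested.

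Leaving out each library in turn gave 29 to 54 genes for tm1200 against never mutated, 1 to 3 for repaired against never mutated, 24 to 45 for repaired against tm1200, 0 to 1 for set-32 and 8 to 19 for met-2 set-25. The lowest count for tm1200 was without the tm1200 library that has no other mutation, and that for met-2 set-25 without tm1200 with met-2 set-25. The median SD was 0.98 to 1.13, lowest without the repaired ok1457 line at F8. No paired analysis was possible because the replicate numbers, given in accession order, pair no libraries. With the strain background as a block, which compares hrde-1 states within a background, 38 genes were called for tm1200 against never mutated, 1 for repaired against never mutated and 32 for repaired against tm1200, 0 of them sperm genes, and the sperm gene medians were 0.43, 0.13 and -0.32 in these comparisons. The planned count test on whole reads was not run. With 1 read worth 0.867 to 2.18 RPKM, genes near 1 RPKM rest on few reads.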
